A study of Mus musculus with 12 samples.

Results

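The genes described here are the fatty acid desaturases and elongases of mouse liver: Scd1, Scd2, Fads1, Fads2, Elovl1, Elovl2, Elovl3, Elovl5 and Elovl6. They were chosen by gene symbol with earlier results of these data known, and all 9 were found among the 13267 genes of the table. Liver messenger RNA was sequenced from 12 C57BL/6 mice that had been made obese, with fatty livers (steatosis), on a high-fat diet. In 6 mice a pellet under the skin delivered 4-hydroxyphenylacetic acid (4-HPAA), a phenolic acid that gut microbes form from dietary polyphenols, and in the other 6 mice the pellet was the scaffold alone (scaffold control). Both groups were treated for 6 weeks, and no lean or untreated group was analysed here. The labels give neither age nor sex, and do not say which diet was fed during treatment. The question was how 4-HPAA alters liver transcripts in diet-induced steatosis.

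Desaturases put double bonds into fatty acyl chains, and elongases add carbon pairs to them. The stearoyl-CoA desaturases Scd1 and Scd2 make the monounsaturated oleate and palmitoleate from saturated chains, and Scd1 is the main liver form. Fads1 and Fads2 encode the delta-5 and delta-6 desaturases, which act in turn on dietary polyunsaturated fatty acids, with Elovl5 and Elovl2 lengthening the chains between and after these steps. Elovl6 lengthens palmitate towards stearate, while Elovl1 and Elovl3 act on saturated and monounsaturated chains of greater length. In liver several of these genes are known targets of the transcription factors SREBP-1c, LXR and PPAR-alpha.

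Values are the deposited normalised read counts, which summed to between 22869813 and 25255447 per library. Underlying reads numbered an estimated 22389551 to 25924799 in 4-HPAA libraries and 24342992 to 26921499 in control libraries. Differences are log2 differences, 4-HPAA minus control, from limma fitted on log2(value + 1) over 12720 genes, with Benjamini-Hochberg adjustment over all of them and a threshold of 0.05. Samples carry only a replicate number, so each was taken as 1 mouse, and the tests rest on the variation among these numbered samples, part of which may be technical. A lower value in whole liver can come from fewer cells of a type or from less RNA per cell, and these cannot be told apart here.

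Per kilobase of merged exon length, Scd1 was by far the most abundant of the 9 genes. On a scale of normalised reads per kilobase for a library total of 1000000, its level averaged 580 ± 398 with 4-HPAA and 1520 ± 712 in controls (SD, n = 6 each). Fads2 stood next on this scale, at 180 ± 40.5 with 4-HPAA and 254 ± 55.8 in controls. Fads1, Elovl5 and Elovl2 followed, with levels of 137 ± 30.8, 88.1 ± 41.1 and 139 ± 39.7 with 4-HPAA, where Elovl5 had the lowest mean. Their levels in controls were 198 ± 34.0, 187 ± 68.2 and 174 ± 18.01. In both groups the ranges of mean ± SD of these 3 genes overlapped. Levels of Elovl3, Elovl6 and Elovl1 lay lower, at 38.3 ± 21.6, 20.96 ± 6.85 and 12.6 ± 1.67 with 4-HPAA and 25.5 ± 5.44, 28.5 ± 11.4 and 12.7 ± 2.74 in controls. Scd2 was lowest, at 0.659 ± 0.160 with 4-HPAA and 1.03 ± 0.390 in controls. Each gene is listed under 1 transcript ID, but some of these IDs are short fragments (373 bases for Elovl6), so the merged exons of the gene were used as its length.

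Scd1, Elovl5, Fads1, Fads2, Scd2 and Elovl2 had lower values in 4-HPAA livers at an unadjusted limma p under 0.05, and no gene of the 9 was higher at that threshold. Across all 12720 genes, 7.56% were lower and 7.26% higher by the same measure. Of the 9 genes, 7 had negative differences (50.2% of all genes), and the median difference was −0.47 against 0.00 for all genes. The family was chosen with earlier results of these data known, so these counts describe it and do not test it. None of the 9 passed after adjustment, with adjusted p between 0.142 for Elovl5 and 0.929 for Elovl1 (limma). Across all genes tested, 0 (0.0%) passed, while 1886 (14.8%) had an unadjusted limma p under 0.05. Without 4-HPAA replicate 4, 193 genes passed, among them Elovl5, Scd1 and Fads1 (limma, adjusted p = 0.0196, 0.0346 and 0.0407). Replicate 4 had the highest value of its group for Elovl5, Scd1 and Fads1, so leaving it out widens their differences. No other single library left out brought any of the 9 genes past the threshold.

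**Figure D1:**
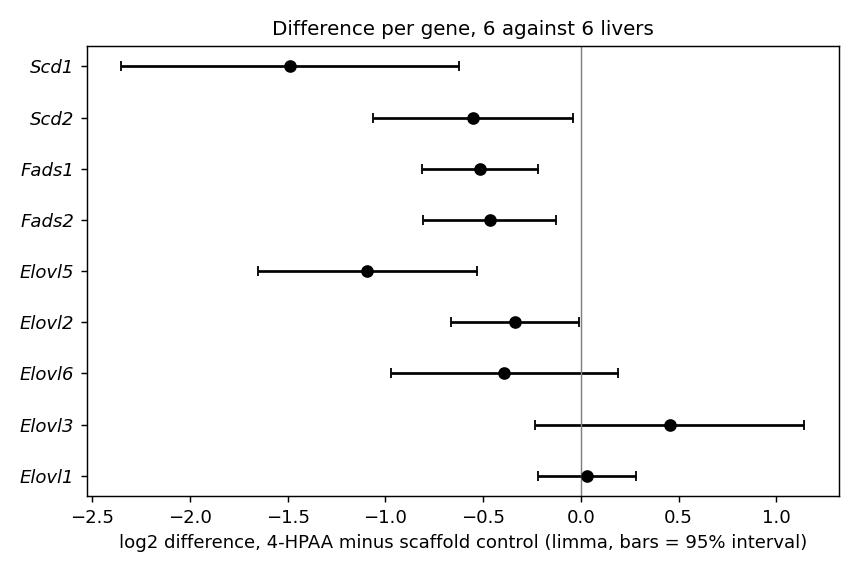
Log2 difference of each gene, 4-HPAA minus scaffold control, from limma over 6 and 6 livers, with 95% intervals. The intervals of Scd1, Scd2, Fads1, Fads2, Elovl5 and Elovl2 lie below 0, those of Elovl6, Elovl3 and Elovl1 cross it, and the sign of Elovl1 turned under some scalings.

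Scd1 (chr19:44394455-44407879, GRCm38, minus strand, protein coding) showed the widest difference of the family. Its normalised read counts were 43830, 46476, 27292, 149725, 47703 and 107749 in 4-HPAA replicates 1 to 6, and 104067, 99090, 194441, 210714, 304783 and 161071 in control replicates 1 to 6. The values of 4-HPAA replicates 1, 2, 3 and 5 lay below every control, while replicates 4 and 6 lay inside the control range. The mean was 70462.5 ± 47620 with 4-HPAA and 179028 ± 76660 in controls (SD, n = 6 each), a ratio of 0.394. On the log2 scale the difference was −1.49 ± 0.40 (SE, limma, unadjusted p = 0.00261, adjusted p = 0.165), and an exact permutation test gave p = 0.0152 (two-sided, smallest possible 0.00216). Scd1 alone took 0.111 to 0.608% of the library total with 4-HPAA and 0.393 to 1.33% in controls. Of the reads summed over the 9 genes it made up 33.1 to 65.9% with 4-HPAA and 56.9 to 74.6% in controls.

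Scd2 (chr19:44293674-44306864, plus strand) is the close paralogue of Scd1 and is known mainly from brain and from the liver of young animals. It was read at 85, 59, 97, 117, 75 and 104 in 4-HPAA replicates 1 to 6, and at 76, 95, 114, 183, 151 and 199 in controls. The groups overlapped, with 4-HPAA replicates 2 and 5 below every control and all 6 4-HPAA livers below the control mean. The log2 difference was −0.55 ± 0.24 (SE, limma, unadjusted p = 0.0358, adjusted p = 0.301), and the exact permutation test gave p = 0.0736 (two-sided).

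The coding sequences of Scd1 and Scd2 are shown in part because they bear on how far the Scd2 value can be trusted. They are identical at 962 of 1074 aligned positions (89.6%), and the longest identical run is 147 bases long. The stretches below are from GENCODE M21 transcripts, with that run in capitals and flanking bases in lower case.
Scd1, coding bases 523 to 669 in capitals: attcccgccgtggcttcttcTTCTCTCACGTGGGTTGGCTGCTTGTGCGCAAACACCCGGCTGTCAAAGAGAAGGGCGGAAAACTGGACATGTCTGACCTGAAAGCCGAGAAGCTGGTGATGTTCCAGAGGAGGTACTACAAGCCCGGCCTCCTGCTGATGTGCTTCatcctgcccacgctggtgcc
Scd2, coding bases 532 to 678 in capitals: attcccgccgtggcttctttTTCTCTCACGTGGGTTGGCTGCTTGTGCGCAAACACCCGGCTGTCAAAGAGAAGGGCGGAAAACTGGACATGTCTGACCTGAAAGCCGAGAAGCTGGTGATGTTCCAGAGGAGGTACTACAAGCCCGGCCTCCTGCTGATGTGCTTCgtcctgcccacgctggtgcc
A read that falls within this run fits both genes, and how the authors' counting treated such reads was not stated in the labels or notes. Of all windows of 50 bases in Scd2 transcripts, 2.66% occur in Scd1 transcripts, and no other pair of the 9 genes shares a window of that length. Scd1 values were far higher than those of Scd2, so the Scd2 value is uncertain. How reads of the shared run were assigned was not tested.

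**Figure D2:**
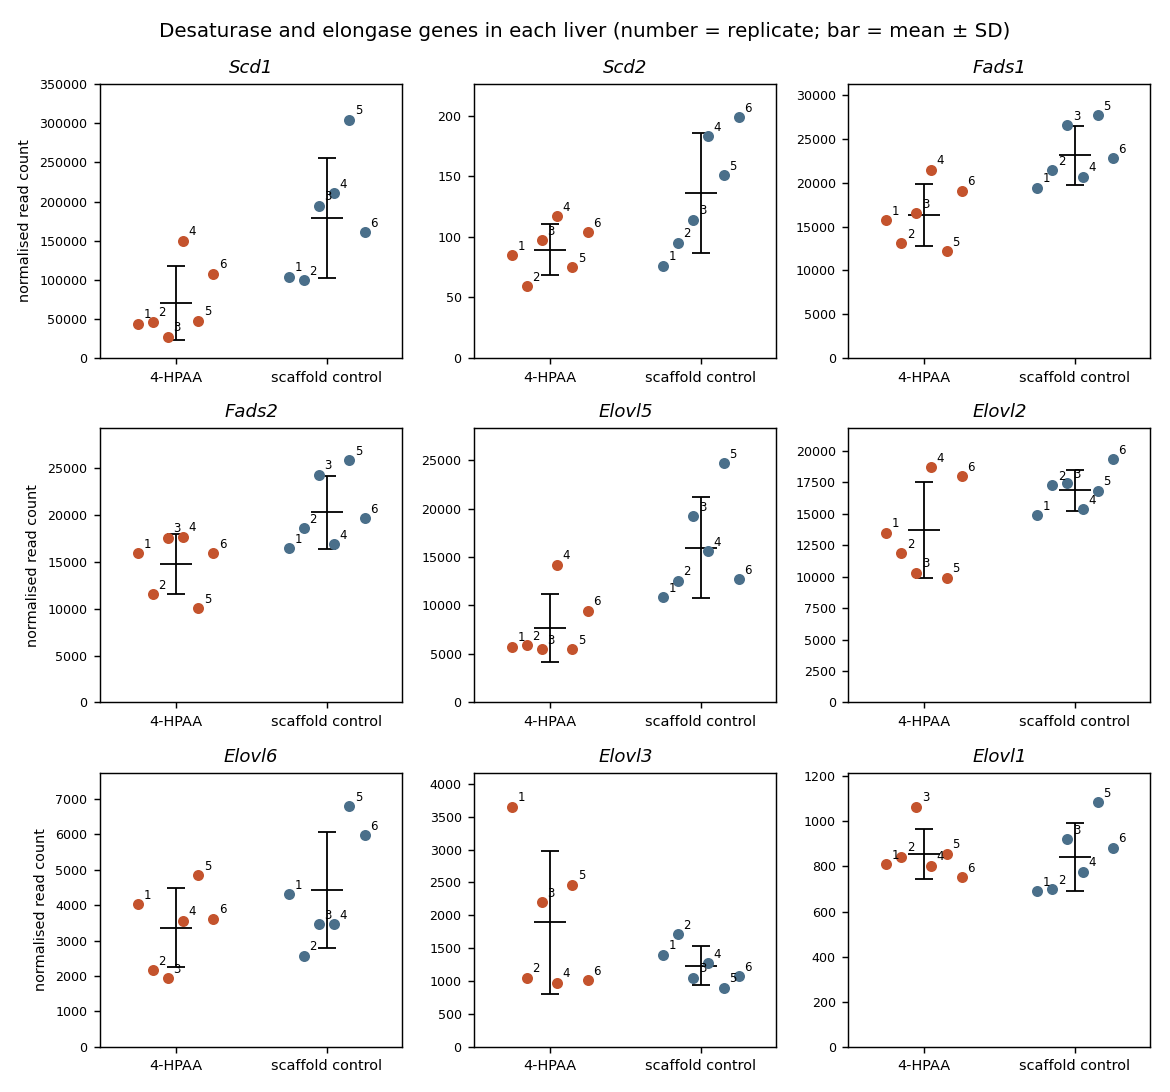
Normalised read count of each gene in each liver, 4-HPAA left and scaffold control right, with points numbered by replicate and bars for mean ± SD. For Scd1 and Elovl2, 4-HPAA replicates 1, 2, 3 and 5 lie under all control points, and for Elovl3 replicates 1, 3 and 5 lie above them.

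Fads1 (chr19:10182888-10196877, plus strand), the delta-5 desaturase that forms arachidonate and eicosapentaenoate, had the second smallest p of the 9 genes. Its values were 15733, 13077, 16538, 21476, 12206 and 19078 in 4-HPAA replicates 1 to 6 and 19445, 21453, 26605, 20715, 27709 and 22809 in controls. All 4-HPAA livers but replicate 4 lay below the lowest control. Means were 16351.3 ± 3522 with 4-HPAA and 23122.7 ± 3328 in controls (SD, n = 6 each), a ratio of 0.707. The log2 difference was −0.52 ± 0.14 (SE, limma, unadjusted p = 0.00215, adjusted p = 0.161; exact permutation p = 0.0108, two-sided).

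Fads2 (chr19:10062765-10101746, minus strand), the delta-6 desaturase at the entry of the polyunsaturated pathway, lies beside Fads1. It was read at 15935, 11569, 17563, 17686, 10081 and 15930 in 4-HPAA replicates 1 to 6, and at 16482, 18606, 24316, 16907, 25830 and 19638 in controls. Here 4-HPAA replicates 1, 2, 5 and 6 lay below every control, and replicates 3 and 4 were level with the lower controls. The log2 difference was −0.47 ± 0.16 (SE, limma, unadjusted p = 0.0106, adjusted p = 0.206; exact permutation p = 0.0238, two-sided).

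Elovl5 (chr9:77917364-77984519, plus strand), the elongase of 18- and 20-carbon polyunsaturated chains, had the smallest p of the family and ranked 85 of 12720 genes by it. Its values were 5737, 5874, 5510, 14182, 5505 and 9449 in 4-HPAA replicates 1 to 6 and 10863, 12563, 19227, 15569, 24696 and 12721 in controls. Among the 4-HPAA livers, replicates 1, 2, 3 and 5 lay close together, with replicate 6 between them and the controls and replicate 4 among the controls. Means were 7709.5 ± 3518 with 4-HPAA and 15939.8 ± 5199 in controls (SD, n = 6 each), a ratio of 0.484. The log2 difference was −1.09 ± 0.26 (SE, limma, unadjusted p = 0.00103, adjusted p = 0.142; exact permutation p = 0.00866, two-sided).

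Elovl2 (chr13:41182381-41220405, minus strand) extends 20- and 22-carbon chains on the way to docosahexaenoate. It was read at 13508, 11880, 10331, 18718, 9923 and 18010 in 4-HPAA replicates 1 to 6, and at 14880, 17301, 17448, 15357, 16855 and 19364 in controls. Again 4-HPAA replicates 1, 2, 3 and 5 were below every control, but replicates 4 and 6 were above 5 of the 6 controls. The SD on the raw scale was 3814 with 4-HPAA and 1612 in controls. The log2 difference of −0.34 ± 0.15 (SE, limma, unadjusted p = 0.0442, adjusted p = 0.324) had an exact permutation p of 0.0866 (two-sided).

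Promoter windows of 250 bases before to 50 after the start site, from RefSeq (GRCm38.p6), were at hand for 5 of the 9 genes: Elovl1, Elovl2, Elovl5, Elovl6 and Fads2, with a second start for Elovl1 and Elovl2. Those of Elovl5 and Fads2, which both had lower values with 4-HPAA, are printed in the direction of transcription with motif matches in capitals.
Elovl5, chr9:77917115-77917414, plus strand: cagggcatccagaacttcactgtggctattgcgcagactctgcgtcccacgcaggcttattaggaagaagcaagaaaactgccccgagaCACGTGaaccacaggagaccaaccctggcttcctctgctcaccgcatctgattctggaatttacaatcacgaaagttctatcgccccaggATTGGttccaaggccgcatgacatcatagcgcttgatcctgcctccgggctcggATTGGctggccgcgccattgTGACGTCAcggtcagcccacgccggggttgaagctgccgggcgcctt
Fads2, chr19:10101454-10101753, minus strand: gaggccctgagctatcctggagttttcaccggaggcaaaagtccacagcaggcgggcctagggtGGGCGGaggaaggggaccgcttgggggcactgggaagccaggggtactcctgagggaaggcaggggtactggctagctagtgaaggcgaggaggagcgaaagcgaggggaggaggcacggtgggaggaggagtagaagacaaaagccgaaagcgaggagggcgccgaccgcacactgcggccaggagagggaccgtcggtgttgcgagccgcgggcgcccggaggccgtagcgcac
Both strands were searched for 8 motifs, and no matches overlap in these windows. The Elovl5 window holds the CCAAT box (CCAAT) in 2 places, 1 E-box (CACGTG) and 1 cAMP response element (TGACGTCA), motifs found in 37.4%, 7.15% and 1.79% of all 32851 windows. The Fads2 window holds 1 GC box (GGGCGG), as do 35.7% of windows. The sterol response element TCACNCCAC, the DR1 element, the DR4 element and the STAT element TTCNNNGAA had no match in any of the 7 windows of these genes, and occur in 1.24%, 0.0396%, 0.0152% and 8.3% of all windows. A match here is a stretch of letters and not a measured binding site.

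None of the 3 elongases of saturated and monounsaturated chains reached an unadjusted limma p of 0.05. Elovl6 (chr3:129532355-129638495, plus strand) had 4036, 2167, 1946, 3560, 4849 and 3615 in 4-HPAA replicates 1 to 6 and 4318, 2574, 3463, 3467, 6797 and 5979 in controls. The groups overlapped widely, and 4-HPAA replicate 5, which lay below every control for Scd1, Fads1, Fads2, Elovl5 and Elovl2, was here the highest of its group. The log2 difference was −0.39 with a 95% interval of −0.97 to 0.19 (limma, unadjusted p = 0.168, adjusted p = 0.527).

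Elovl3 (chr19:46131897-46135694, plus strand), known in liver for daily rhythm and sex-dependent expression, was the 1 gene of the family with 4-HPAA livers above every control. It was read at 3650, 1049, 2199, 976, 2468 and 1012 in 4-HPAA replicates 1 to 6, and at 1402, 1715, 1051, 1276, 897 and 1071 in controls. Replicates 1, 3 and 5 lay above all controls, and replicates 2, 4 and 6 lay within the control range. The difference did not pass, at 0.45 with a 95% interval of −0.23 to 1.14 (limma, unadjusted p = 0.178, adjusted p = 0.541). Time of day at collection was not analysed here.

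Elovl1 (chr4:118428093-118432953, plus strand), the broadly expressed elongase of very long saturated chains, ranged from 753 to 1065 (median 827.5) with 4-HPAA and from 691 to 1086 (median 830.5) in controls. The interval of its log2 difference, −0.22 to 0.28, was the narrowest of the 9 (limma, unadjusted p = 0.798, adjusted p = 0.929). Its point estimate of 0.03 turned to −0.02 when libraries were scaled to the total without the 50 highest genes.

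Across livers, the low values came together in 4-HPAA replicates 1, 2, 3 and 5. The number of the 9 genes below every control was 5, 7, 5, 0, 6 and 3 in 4-HPAA replicates 1 to 6. The share of all genes below every control in each liver is not given here, so these numbers do not set the family apart. At least 4 of 6 4-HPAA livers were below every control for Scd1, Fads1, Fads2, Elovl5 and Elovl2, a pattern seen in 6.87% of all genes. No gene of the 9 had groups free of overlap, against 0.354% of all genes with every 4-HPAA liver lower and 0.307% with every one higher. Summed over the 9 genes, the share of the library total was 0.336 to 0.923% (median 0.391%) with 4-HPAA and 0.682 to 1.79% (median 1.08%) in controls. Without Scd1 it was 0.183 to 0.315% (median 0.230%) with 4-HPAA and 0.270 to 0.455% (median 0.324%) in controls. Controls also differed among themselves, with replicate 5 the highest for Scd1, Fads1, Fads2, Elovl5, Elovl6 and Elovl1.

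**Figure D3:**
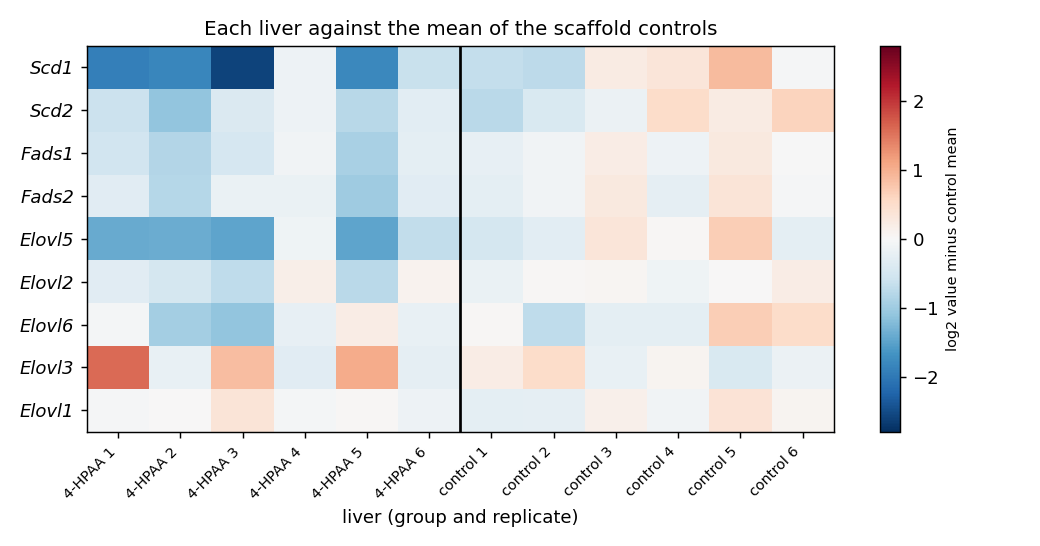
Log2 value of each gene in each liver minus the mean of the scaffold controls, 4-HPAA livers left and controls right, with blue for lower and red for higher. Scd1 and Elovl5 are darkest in 4-HPAA replicates 1, 2, 3 and 5, and Elovl3 is red in 4-HPAA replicates 1, 3 and 5.

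Whether linked enzymes differed in their response was asked with 6 log2 ratios of normalised read counts between genes of the family. Gene length cancels in the difference between groups but not in the group averages, which therefore do not rank genes by abundance. The ratio of Scd1 to Scd2 averaged 9.39 ± 0.78 with 4-HPAA and 10.32 ± 0.48 in controls (SD, n = 6 each), a difference of −0.93 with all 6 4-HPAA livers below the control mean (exact permutation p = 0.0260, two-sided, adjusted p = 0.0520 over 6 ratios). Its denominator Scd2 was low, at 59 to 199 over both groups, and its value is uncertain for the reason given above. Scd1 over Fads1 differed by −0.97 and Elovl5 over Elovl2 by −0.75, each in the same direction in all 6 livers (exact permutation p = 0.0260 and 0.00866, adjusted p = 0.0520 for both). None of these passed, though each did without 4-HPAA replicate 4 (adjusted p = 0.0260 for each, exact permutation). Replicate 4 had the highest value of its group for each of these ratios, so leaving it out widens the difference and adds no separate support. With any other single library left out none of these ratios passed (exact permutation, adjusted p from 0.0520 to 0.104). Fads1 over Fads2 held closest, averaging 0.15 ± 0.16 with 4-HPAA and 0.20 ± 0.07 in controls (SD, n = 6 each), a difference of −0.05 (exact permutation p = 0.496, two-sided). Elovl5 over Elovl6 and Elovl6 over Elovl3 differed by −0.70 and −0.85 (exact permutation, adjusted p = 0.122 for both).

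Variation of the 9 genes within groups was compared pair by pair. After each log2 value was centred on its group mean, 27 of 36 pairs had a positive Pearson correlation over the 12 libraries, and 3 pairs passed an adjusted p of 0.05 (100000 permutations within groups, adjusted over 36 pairs). Scd1 and Elovl5 correlated at r = 0.926 (permutation p = 0.00015, adjusted p = 0.0027; Spearman rho = 0.853, permutation p = 0.00135, adjusted p = 0.0243). Fads1 and Fads2 correlated at r = 0.916 (permutation p = 0.00015, adjusted p = 0.0027; Spearman rho = 0.937, permutation p = 0.00012, adjusted p = 0.00432). For Fads1 and Elovl5 r was 0.855 (permutation p = 0.00083, adjusted p = 0.00996), while Spearman's rho of 0.790 had an adjusted permutation p = 0.0551. Without the 2 libraries farthest from the median, r was 0.854, 0.912 and 0.815 for these pairs. Within the 6 4-HPAA livers alone r was 0.943, 0.881 and 0.841, and within the 6 controls 0.9, 0.994 and 0.891. All 8 pairs with Elovl3 were negative, the lowest with Scd1 at r = −0.705 (permutation p = 0.0276, adjusted p = 0.111). None of them passed, and they are not independent, since all share Elovl3. The pairs with Elovl6 and Elovl1 were weakest, at r = −0.043 and −0.109. For these 2 pairs r was 0.265 and 0.364 within the 4-HPAA livers, and −0.791 and −0.945 within controls.

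**Figure D4:**
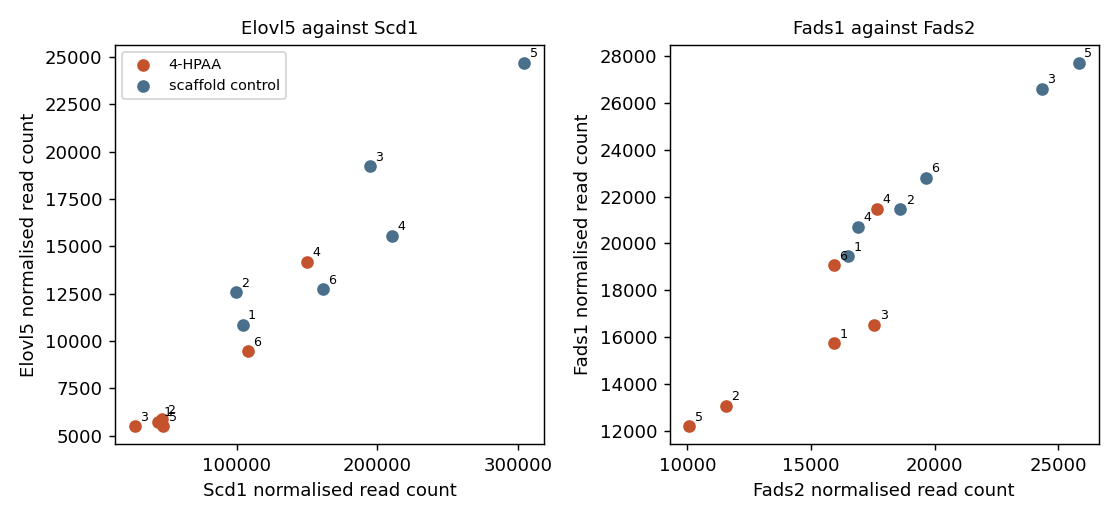
Normalised read counts of Elovl5 against Scd1 and of Fads1 against Fads2, 1 point per liver, numbered by replicate and coloured by group. In both plots the points run along 1 rising band, with 4-HPAA replicate 4 among the controls.

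Among 9348 genes of sufficient level, those closest to each member in this within-group pattern were sought over the 12 libraries. For Fads1 and Fads2 the acyl-CoA synthetase gene Acsl5 stood first and second (r = 0.939 and 0.912), and Fads3, which neighbours Fads2, was among the 3 closest to Fads2 (r = 0.846). Closest to Scd1, Elovl2 and Elovl5 were Sgk3, Pogk and Dlat (r = 0.936, 0.92 and 0.897). The organic anion transporter gene Slco1a4 was also among the 3 closest to each of these members (r = 0.913, 0.905 and 0.892). Elovl3 lay closest to Ift172 and to the endoplasmic reticulum chaperone gene Calr (both r = 0.921), and Elovl6 lay closest to Tmem167 (r = 0.89). Scd2 lay closest to the pyruvate kinase gene Pkm (r = 0.931) and Elovl1 to Nup50 (r = 0.939). These coefficients were picked as the highest of many and carry no test.

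The enzymes and factors around the family were examined as 8 lists with 61 tested genes in all, chosen with earlier results of these data known. Of these, 9 were lower and 2 higher at an unadjusted limma p under 0.05 (7.56% and 7.26% of all genes), none passed after adjustment, and the median difference was −0.09. With array weights, which give each library its own weight in the fit, 17 were lower and 4 higher. Genes with an unadjusted limma p under 0.05 also rose across all 12720 genes, from 1886 to 3050 with array weights. Of the other family members, Fads3, whose substrate range is less well known, had 435, 307, 917, 996, 427 and 691 in 4-HPAA replicates 1 to 6 and 590, 715, 1707, 827, 2771 and 1308 in controls (log2 difference −0.98 ± 0.39, SE, limma, unadjusted p = 0.0263). Degs1, which desaturates dihydroceramide, was at −0.11 ± 0.07 and Fads6 at 0.05 ± 0.08.

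Of 6 genes for the enzymes that complete each elongation cycle, 1 was lower at an unadjusted limma p under 0.05 (7.56% of all genes), the ketoacyl-CoA reductase gene Hsd17b12 at −0.16 ± 0.07 (SE, limma, unadjusted p = 0.0331). The dehydratase genes Hacd3 and Hacd4 were at −0.09 ± 0.06 and −0.29 ± 0.28 (SE). Of 5 tested genes for the electron chain that serves the desaturases, none had an unadjusted limma p under 0.05, with the cytochrome b5 gene Cyb5b at −0.19 ± 0.09, the reductase gene Cyb5r3 at −0.12 ± 0.09 and Cyb5r4 at −0.11 ± 0.08 (SE).

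Of 9 genes that supply malonyl-CoA and palmitate, 3 were lower at an unadjusted limma p under 0.05 (7.56% of all genes): the acetyl-CoA carboxylase gene Acacb (−0.62 ± 0.19), malic enzyme Me1 (−0.67 ± 0.23) and acetyl-CoA synthetase Acss2 (−0.57 ± 0.20). Among 7 acyl-CoA synthetases and transport proteins, Acsl5 averaged 6850.7 ± 812 with 4-HPAA and 8690.8 ± 802 in controls (SD, n = 6 each; log2 difference −0.35 ± 0.09, SE, limma, unadjusted p = 0.00173). Acsl1 was at −0.19 ± 0.12 and Slc27a4 at −0.10 ± 0.10 (SE). Values of Acsl5 overlapped between groups only through 4-HPAA replicate 4, at 8106 against a lowest control of 7607.

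Of 15 genes for transcription factors known to act on the family and their regulators, 1 was lower and 2 higher at an unadjusted limma p under 0.05, and the median was 0.04. Of all genes, 7.56% were lower and 7.26% higher at that threshold. Srebf1, which encodes SREBP-1, averaged 12004 ± 3511 with 4-HPAA and 10198 ± 2020 in controls (SD, n = 6 each), a log2 difference of 0.21 with a 95% interval of −0.19 to 0.60. Mlxipl, the carbohydrate-responsive factor ChREBP, was at 0.43 ± 0.12 (SE, limma, unadjusted p = 0.0039) and its partner Mlx at 0.25 ± 0.11 (unadjusted p = 0.037), both on the higher side. Over 23 alternatives, Mlxipl kept an unadjusted limma p under 0.05 in all 23, but Mlx in 13. Pparg, a nuclear receptor known for its role in fat cells, was at −0.69 ± 0.19 (SE, limma, unadjusted p = 0.00239). These are transcript levels, and the processed, active forms of these factors were not measured.

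Of 9 acyltransferases that place the products into phospholipid, triglyceride or sterol ester, none had an unadjusted limma p under 0.05, with Lpcat3 at −0.20 ± 0.11, Agpat2 at 0.17 ± 0.12 and Gpam at −0.22 ± 0.17 (SE). Among 7 genes of peroxisomal chain shortening, which completes docosahexaenoate synthesis, 2 were lower at an unadjusted limma p under 0.05 (7.56% of all genes). Abcd2, a peroxisomal transporter of very long acyl-CoAs, had 135, 160, 212, 905, 139 and 696 in 4-HPAA replicates 1 to 6 and 732, 1007, 1206, 1367, 1164 and 636 in controls. As for Scd1, 4-HPAA replicates 1, 2, 3 and 5 were below every control and replicates 4 and 6 were within the control range. Its log2 difference was −1.85 ± 0.47 (SE, limma, unadjusted p = 0.00194, adjusted p = 0.157).

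**Figure D5:**
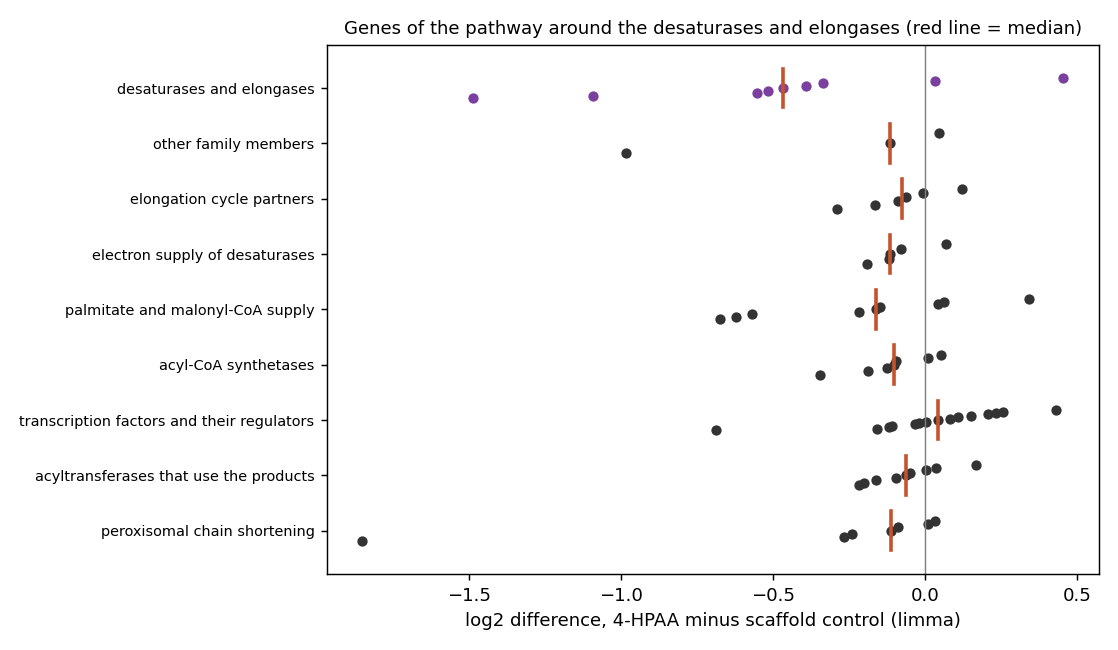
Log2 difference, 4-HPAA minus scaffold control, of each tested gene in the family (top) and in the 8 lists around it, 1 point per gene, with the median of each list in red. The family median is −0.47, and the lists' medians lie between −0.16 and 0.04.

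Other features of the same livers moved alongside. Of 10 genes of the acute phase response, made by hepatocytes, all had positive differences and 8 an unadjusted limma p under 0.05 (7.26% of all genes were higher by that measure). This list and the cell type lists below were chosen with earlier results of these data known, so their counts are descriptive only. None of the 10 acute phase genes passed after adjustment. Their summed value was 158353 to 397235 with 4-HPAA and 145084 to 166818 in controls. Saa1, serum amyloid A, was at 37622, 63934, 12759, 2844, 27065 and 2196 in 4-HPAA replicates 1 to 6 and between 1270 and 2690 in controls, so the livers with high Saa1 were replicates 1, 2, 3 and 5. Estimated reads were fewest in 4-HPAA replicates 1, 2 and 5 (22389551, 23352567 and 23768844), whereas replicate 3 had 25924799. The part of either in the results above was not tested.

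Hepatocyte identity was plain in every library, with albumin at 4.98 to 7.58% of the total with 4-HPAA and 7.59 to 8.72% in controls. Of 9 hepatocyte markers 1 was lower and 2 higher at an unadjusted limma p under 0.05, and their sum was 2256332 to 2873105 with 4-HPAA and 2585737 to 3133214 in controls. Over all genes tested, 7.56% were lower and 7.26% higher at that threshold, and 50.2% had a negative difference. Of 10 adipocyte markers 5 were listed, all with negative differences and 3 with an unadjusted limma p under 0.05, and the defining markers Adipoq, Plin1, Lep and Retn were not analysed here. The summed adipocyte list, nearly all of it Car3, which liver also expresses, was 75714 to 126045 with 4-HPAA and 94157 to 144086 in controls. Cfd was at 46, 20, 450, 298, 45 and 80 in 4-HPAA replicates 1 to 6 and 205 to 1133 in controls. All 10 stellate cell and fibroblast markers had negative differences, 7 with an unadjusted limma p under 0.05, with a summed value of 4486 to 8653 with 4-HPAA and 7185 to 11293 in controls. Endothelial, macrophage and cholangiocyte markers were lower at that threshold for 3 of 10, 1 of 10 and 1 of 7 genes and higher for none, and their sums overlapped between groups (5016 to 6656 with 4-HPAA and 5708 to 6606 in controls, 3405 to 5536 and 2391 to 10096, and 1649 to 2372 and 1697 to 2329). The part of these cells in the results for the family was not tested.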

How the data were processed

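Liver RNA of 12 mice was sequenced, 6 with 4-HPAA and 6 with scaffold control pellets. RNeasy extraction and directional TruSeq mRNA libraries on a NovaSeq instrument are given per the labels' protocols. Per the submitters' processing notes, the build was GRCm38, and FastQC (0.11.9), cutadapt, STAR, HTSeq, edgeR and DESeq2 (1.28.1) were used, with no role or order given. The deposited values are whole numbers treated here as a score: read counts that the authors appear to have scaled by 1 factor per library. The spacing of low values gave factors of 0.850 to 1.13, and depth was estimated as total over factor. No value is under 2, and the precision of low genes is limited by counting error.

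GENCODE M21 named 13203 of 13267 rows. The filter kept genes at 10 or more in 6 or more libraries. These were fitted with limma 3.58.1 in R 4.3.3 (trend and robust) on log2(value + 1), a scale that understates the change of low genes. Ratios were tested by exact permutation in scipy 1.17.1. The 9 genes, the 8 pathway lists and the 7 marker lists were chosen with earlier results of these data known. The rule for named genes took all 9 members, up to 3 genes of smallest p in each pathway list, the 3 genes most correlated with each member within groups (mean value of at least 100), and marker genes needed to describe their list. Srebf1 was named outside this rule, after its values were seen. Some genes that the rule names are not reported here. Alternatives were other pseudocounts, filters and scalings, plain limma, array weights, a replicate block and leaving out each library. All 30 pairs of libraries within groups differed by more than sampling noise (chi-square over genes, 17.9 to 120 per gene).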

Additional observations from a re-analysis of the deposited data

Results flagged for a closer look

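Each of the 9 genes was examined in both groups, 18 sets of 6 livers, for a liver far from the rest. In 1 set the gap between the extreme liver and its neighbour, as a share of the group's range, exceeded Dixon's 95% critical value. This was Elovl1 in 4-HPAA replicate 3, at 1065, with a gap of 0.67 of the range. Chance flags about 1 in 20 such sets.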

How the results depend on the processing

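Over 23 alternatives, Scd1, Fads1, Fads2 and Elovl5 kept a negative difference and an unadjusted limma p under 0.05 in all 23, while Scd2 did so in 17 and Elovl2 in 14. Elovl1 turned to −0.004 with quantile normalisation and −0.0172 when scaled to the total without the 50 highest genes, where Fads6 turned to −0.0019, and it ran from −0.0344 to 0.1073 with single libraries left out. The number of the 9 genes past the adjusted threshold was 0, and 0 to 3 with single libraries left out, the 3 without 4-HPAA replicate 4. Of the pathway list genes, 9 were lower at an unadjusted p under 0.05 and 17 with array weights. In either direction, 1886 of all 12720 genes had an unadjusted limma p under 0.05, and 3050 with array weights. The higher pathway list genes numbered 2, but 1 with scaling by library total, quantile normalisation or the total without the 50 highest genes, 4 with array weights and 1 to 4 with single libraries left out. Pathway genes past adjustment numbered 0, but 1 with array weights and 0 to 2 with single libraries left out. Across all genes 0 passed, but 139 with array weights, 193 without 4-HPAA replicate 4 and 5 without control replicate 1. With single libraries left out the log2 ratio difference ran from −1.1181 to −0.6805 for Scd1 over Scd2, −0.8526 to −0.6174 for Elovl5 over Elovl2 and −1.155 to −0.7392 for Scd1 over Fads1. The cause of these shifts was not tested. Whether replicate numbers pair the samples is not given by the labels. Deviations from the group mean correlated at −0.183 to 0.282 between same-numbered samples and at −0.251 to 0.339 between differently numbered ones. These few coefficients cannot decide whether the samples were paired. With a replicate block 11 genes passed, Scd1 stayed at −1.49 (limma, adjusted p = 0.141), and Elovl6 had an unadjusted limma p of 0.00991. Depth limits Scd2 most, since its values lie near 100.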
